A study of Danio rerio with 12 samples.

Results

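The genes described here encode the secreted serine proteases of the zebrafish exocrine pancreas: the trypsins prss1, prss59.1 and prss59.2, the chymotrypsins ctrb.1 (older name ctrb1), ctrb.3 and ctrl, and the elastases ela2, ela2l and ela3l. They were chosen by name, as the probes whose annotated symbol or older synonym was one of 10 listed symbols. The symbols try and prss1 name the same gene in current RefSeq annotation, so the list held 9 genes. Of these, 8 had at least 1 probe, with 17 probes in all, among 15080 named genes and 43603 probes on the array. No probe was annotated to prss59.2, which was not analysed here. The RefSeq annotation also gives ela2l the chymotrypsin-type synonym ctrc, and the gene is grouped with the elastases here by its symbol.

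Acinar cells of the pancreas make these enzymes as inactive zymogens, store them in granules and release them into the gut. There enteropeptidase cuts trypsinogen, and active trypsin then activates the other zymogens. Trypsins cut proteins after lysine or arginine, and chymotrypsins after large hydrophobic residues. In a feeding fish larva the transcripts of these genes are markers of differentiated acinar cells.

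Whole zebrafish larvae (wild type, AB strain) were compared after exposure to silver nitrate (AgNO3), a soluble silver salt, or to silver nanoparticles (AgNPs), each at 0.01 mg/L. Eggs and embryos of all groups were kept in conditioned water in petri dishes. Larvae were then moved to 1 L tanks, exposure began at 6 days post fertilization, and larvae were harvested after 15 days at an age of 21 days. Control larvae stayed in conditioned water with methylene blue. Each 2-colour Agilent array carried RNA of 1 exposed and 1 control sample, with 6 arrays per exposed group. In each group, replicates 1 to 3 had the exposed RNA in Cy5 and replicates 4 to 6 had it in Cy3. By their codes, 6 control samples were each used on 1 AgNO3 and 1 AgNPs array, so both comparisons share controls. Neither the number of tanks per group nor that of larvae per sample is stated in the labels. The p-values therefore cover only the spread among these samples, which may be technical.

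The deposited values were log ratios, taken here as log2 of exposed over control. The base, the order of the channels and the turning of dye-swapped arrays before deposit are not stated in the sources used here. With the opposite channel order, the sign of every log2 ratio and difference below turns, but not that of a correlation between features. All 17 probes of these genes had a value on all 12 arrays, and probes of a gene were averaged. Intensities were not used here, so the level of each transcript and its signal over background are unknown. Precision is limited by having 6 arrays a group. The fit pooled the residual variance of a gene over both groups, so each protease gene had the same SE in AgNO3 and AgNPs. The middle 50% of the log ratios spanned 0.216 to 0.342 on the AgNO3 arrays, 0.293 and 0.233 on AgNPs replicates 1 and 2, and 0.0946 to 0.116 on AgNPs replicates 3 to 6. In whole larvae, fewer acinar cells and less RNA per cell cannot be told apart.

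The AgNO3 arrays addressed whether the proteases differed between larvae kept with the silver salt and control larvae. All 8 genes had a mean log2 ratio above 0, from 0.09 for prss1 to 0.43 for ctrb.3, with a median of 0.19. Over all 25264 features tested, the median was -0.01 and 48.2% were above 0. None of the 8 differed from control at an adjusted p below 0.05 (limma, Benjamini-Hochberg over all features), against 0.0119% of all features. At an unadjusted p below 0.05 there was 1 of 8, ctrb.3, against 8.25% of all features.

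Among the trypsins, prss1 had log2 ratios in AgNO3 from -0.59 to 1.22 with a median of -0.03. It was above 0 on the 3 arrays of the Cy5 orientation, with a mean of 0.55, and below 0 on the 3 of the Cy3 orientation, with a mean of -0.38. The fitted mean was 0.09 (SE 0.14, 95% interval -0.21 to 0.39, n = 6, adjusted p = 0.890, limma). Without replicate 3, the array at 1.22, it was -0.07. The trypsin-like prss59.1 ranged from -0.23 to 0.49 with a median of 0.22 and was above 0 on 5 of 6 arrays. Its fitted mean was 0.19 (SE 0.09, interval -0.01 to 0.39, adjusted p = 0.622). The arrays above 0 included all 3 of the Cy5 orientation, and the lowest value came from replicate 6.

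Among the chymotrypsins, ctrb.3 had the highest ratios of the family in AgNO3, from 0.0044 to 0.92 with a median of 0.48. All 6 arrays were above 0, as they were for 2.01% of the 20330 features measured on all 6 AgNO3 arrays. No gene of the family was below 0 on all 6, as 2.54% of those features were. The fitted mean was 0.43 (SE 0.19, interval 0.01 to 0.86, unadjusted p = 0.0473, adjusted p = 0.600, limma). It was carried by a single probe, so no second probe could be set beside it. The chymotrypsinogen gene ctrb.1 ranged from -0.11 to 0.52 with 5 of 6 arrays above 0 and a fitted mean of 0.16 (SE 0.09, adjusted p = 0.660). Its lowest value came from replicate 3 and its highest from replicate 6. The chymotrypsin-like ctrl ranged from -0.30 to 0.41, with 4 of 6 arrays above 0 and a fitted mean of 0.12 (SE 0.11, adjusted p = 0.755), and was likewise lowest on replicate 3. Leaving out 1 array moved the mean of ctrb.1 between 0.11 and 0.20 and that of ctrl between 0.04, without replicate 1, and 0.20, without replicate 3.

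The 3 elastase genes had close means in AgNO3. For ela2 the values ran from -0.34 to 0.70 with a median of 0.16, for a fitted mean of 0.20 (SE 0.11, adjusted p = 0.655). For ela2l they ran from -0.06 to 0.67 with a median of 0.09, for a mean of 0.20 (SE 0.09, unadjusted p = 0.0556, adjusted p = 0.610). For ela3l they ran from -0.10 to 0.72 with a median of 0.09, for a mean of 0.22 (SE 0.11, adjusted p = 0.620). Each was above 0 on 4 of 6 arrays, but the high arrays differed: replicates 1 and 2 for ela2 and ela3l, and replicates 5 and 6 for ela2l. The means depended on single arrays. Without replicate 5 the mean of ela2l was 0.11. The mean of ela2 was 0.12 without replicate 2 and 0.30 without replicate 3, and that of ela3l was 0.13 without replicate 1. The 95% intervals of the AgNO3 means were wide beside the means themselves, and those of all genes but ctrb.3 included 0. These intervals rest on the pooled SE, which does not show the spread of AgNO3 arrays alone. The SD of ela2 was 0.41 in AgNO3 and 0.18 in AgNPs, but for ctrb.1, ctrb.3 and ctrl it was higher in AgNPs. With the AgNO3 arrays fitted alone, the lowest adjusted p of the family was 0.822 (limma), against 0.600 in the main fit. That fit also held fewer arrays.

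**Figure D1:**
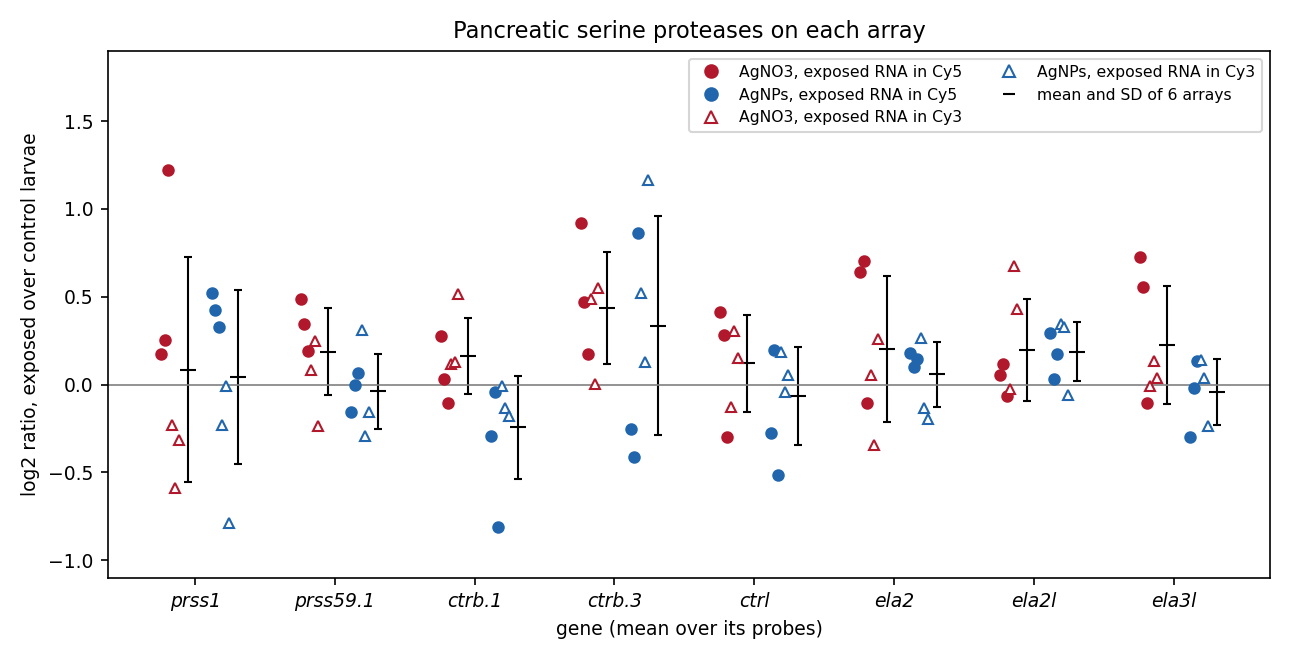
Log2 ratio of exposed over control larvae (vertical axis) for the 8 genes (horizontal axis), with AgNO3 in red and AgNPs in blue. Filled circles are arrays with exposed RNA in Cy5, open triangles those with exposed RNA in Cy3, and the black bars are the mean and SD of 6 arrays. For prss1 all Cy5 arrays lie above 0 and all Cy3 arrays below, ctrb.3 lies above 0 on 6 of 6 AgNO3 arrays, and ctrb.1 lies below 0 on 6 of 6 AgNPs arrays.

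Across single AgNO3 arrays, the mean over the 8 genes was 0.46 on replicate 1 and 0.35 on replicate 2, where all 8 genes were above 0. It lay between 0.04 and 0.17 on replicates 3 to 6, where 3 to 6 of the 8 genes were above 0. On replicate 3 the mean was 0.11 but the median over the genes was -0.08. There prss1 stood at 1.22 and 5 of the 8 genes were below 0. The arrays of the highest family mean were thus 2 of the 3 with exposed RNA in Cy5. The median fitted over the 3 Cy5 arrays alone was 0.37, and over the 3 Cy3 arrays alone 0.08.

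The AgNPs arrays addressed the same question for the nanoparticles. There 4 genes had means above 0 and 4 below, with a median of 0.00 over the 8 genes, the same as over all features tested, of which 51.7% were above 0. None of the 8 differed from control at an adjusted p below 0.05 (limma), against 0.0237% of all features, and every adjusted p was 1.00. At an unadjusted p below 0.05 there was 1 of 8, ctrb.1, against 4.24% of all features.

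The values of ctrb.1 in AgNPs ran from -0.81 to -0.01 with a median of -0.16, and all 6 arrays were below 0, as they were for 2.33% of the 20305 features measured on all 6 AgNPs arrays. No gene of the family was above 0 on all 6, as 2.55% of those features were. The fitted mean was -0.24 (SE 0.09, interval -0.45 to -0.03, unadjusted p = 0.0266, adjusted p = 1.00, limma). Replicate 3 held the lowest value, and without it the mean was -0.14. Its relative ctrb.3 stood at -0.25 and -0.41 on replicates 1 and 2 and above 0 on the other 4 arrays, up to 1.16 on replicate 6. The mean of ctrb.3 was 0.34 (SE 0.19, interval -0.09 to 0.76, adjusted p = 1.00). It was 0.17 without replicate 6 and 0.20 without replicate 3. For ctrl the values ran from -0.51 to 0.20, with 3 arrays on each side of 0 and a mean of -0.07 (interval -0.31 to 0.18).

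Among the elastases in AgNPs, ela2l was above 0 on 5 of 6 arrays, from -0.06 to 0.35, with a mean of 0.19 (SE 0.09, interval -0.02 to 0.39, unadjusted p = 0.0688, adjusted p = 1.00, limma). Of the other two, ela2 ranged from -0.20 to 0.27 (mean 0.06, interval -0.19 to 0.31) and ela3l from -0.30 to 0.14 (mean -0.04, interval -0.28 to 0.20). Both had arrays on each side of 0.

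Of the trypsins, prss1 had values in AgNPs from -0.79 to 0.52 with a mean of 0.04 (interval -0.26 to 0.34). As in AgNO3, its 3 Cy5 arrays lay above 0 (mean 0.43) and its 3 Cy3 arrays below (mean -0.34). For prss59.1 the values ran from -0.29 to 0.31 with a mean of -0.04 (interval -0.24 to 0.16), and 4 of 6 arrays were below 0.

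**Figure D2:**
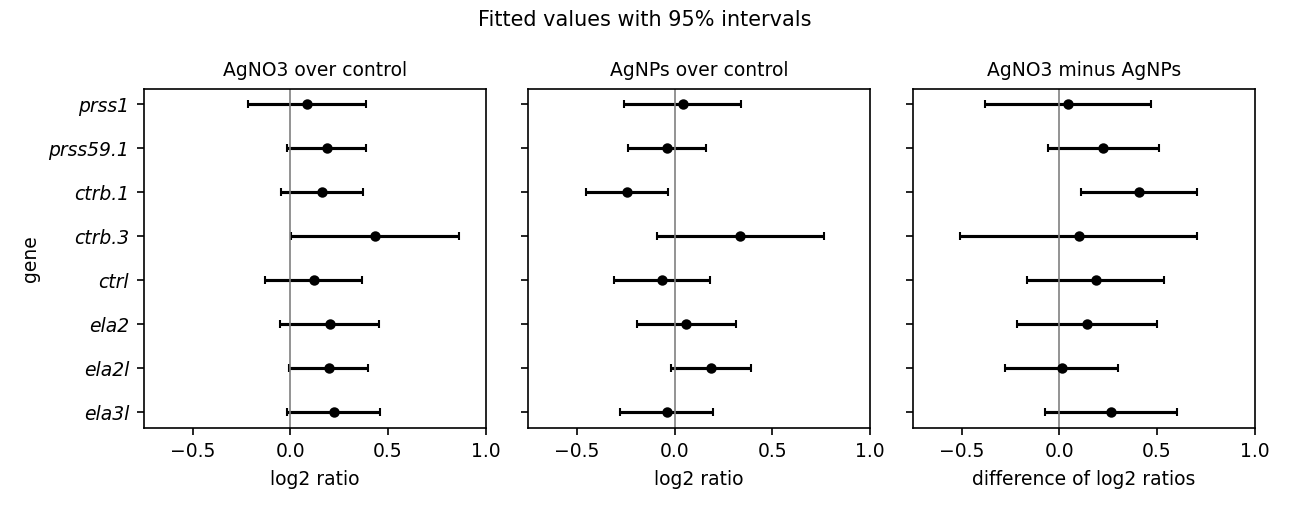
Fitted values (points) with 95% intervals (bars) for the 8 genes on a log2 scale, in AgNO3 over control, AgNPs over control and AgNO3 minus AgNPs; the grey line marks 0. Intervals that leave out 0 belong to ctrb.3 in AgNO3, to ctrb.1 in AgNPs and to ctrb.1 in the difference, and no adjusted p was below 0.05.

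The difference AgNO3 minus AgNPs was tested directly. It was positive for all 8 genes, from 0.01 for ela2l to 0.41 for ctrb.1, with a median of 0.16. Over all features the median was -0.01 and 48.2% were positive. The median of the 8 genes was 0.35 over Cy5 arrays alone and 0.06 over Cy3 arrays alone. No gene reached an adjusted p of 0.05 (limma; 0% of all features did), and 1 of 8 had an unadjusted p below 0.05, against 4.22% of all features. For ctrb.1 the difference was 0.41 (SE 0.13, interval 0.11 to 0.70, unadjusted p = 0.0119, adjusted p = 0.858). Its AgNO3 and AgNPs arrays overlapped between -0.11 and -0.01. This gene was picked for the largest difference of the 8, and the share of all features with as little overlap was not computed. Next came ela3l at 0.26 (interval -0.07 to 0.60), prss59.1 at 0.22 (interval -0.06 to 0.51) and ctrl at 0.19 (interval -0.16 to 0.54). The smallest differences had intervals of -0.28 to 0.30 for ela2l, -0.38 to 0.47 for prss1 and -0.51 to 0.70 for ctrb.3. The salt and the particles were dosed at the same mg/L of compound as labelled, and the dissolved silver in the tanks is not stated in the labels.

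Among the gene means, the dye orientation of the array went mainly with the values of prss1. The fit included a dye term, coded so that its value is that of the Cy5 orientation relative to the midpoint of both orientations. For prss1 this term was 0.42 (SE 0.10, unadjusted p = 0.00111, adjusted p = 0.134, limma), and for the other 7 genes it lay between -0.12 and 0.15. No gene of the family passed the threshold for the dye term, against 0.285% of all features. At an unadjusted p below 0.05 there was 1 of 8, prss1, against 10.3% of all features.

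Single probes, fitted apart after the gene values had been seen, showed larger orientation differences than gene means. Of the 17 probes, 9 had a positive and 8 a negative dye term. A dye term at an unadjusted p below 0.05 was found for 7 of 17 probes, against 11.8% of the 38201 probes tested. Of 7 genes with several probes, 6 had dye terms of both signs among their probes, as did 57.8% of the 4897 genes with several probes. The single exception was prss1.

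One prss1 probe, called probe 1 here, passed the threshold for the dye term at 0.73 (SE 0.09, adjusted p = 0.00949, limma), against 0.623% of all probes. Its values were 0.47 to 1.45 on the 6 Cy5 arrays and -0.85 to -0.12 on the 6 Cy3 arrays, with no overlap. It was picked for its dye term, the largest among these probes. The share of all probes without such an overlap was not computed. If the Cy3 arrays had not been turned before deposit, this probe would be above 0 on 12 of 12 arrays. The gene mean of prss1 would then be 0.46 in AgNO3 (adjusted p = 0.293, limma) and 0.38 in AgNPs (adjusted p = 0.726). The other two prss1 probes had dye terms of 0.41 and 0.14. On probe 3, AgNO3 replicate 2 stood at -1.47 and replicate 3 at 2.46, and the gene value on replicate 3 averaged probes at 1.16, 0.05 and 2.46. In AgNPs the 3 probes had means of 0.41, -0.25 and -0.04.

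The 2 probes of ctrb.1 had opposite dye terms, 0.33 (SE 0.07, adjusted p = 0.0898, limma) for probe 1 and -0.56 (SE 0.11, adjusted p = 0.0517) for probe 2. Such a pair, with both unadjusted p below 0.05, was found in 1 of the 7 genes and in 3% of all genes with several probes. On the Cy5 arrays probe 1 averaged 0.28 and probe 2 averaged -0.59. On the Cy3 arrays they averaged -0.37 and 0.52. With the Cy3 arrays turned, probe 1 would be above 0 on 10 of 12 arrays and probe 2 below 0 on 11 of 12. The share of all probes with such counts was not computed. Averaging the probes cancelled much of the opposite dye terms. The mean of ctrb.1 in AgNPs came from -0.18 on probe 1 and -0.31 on probe 2.

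Smaller pairs of opposite sign were seen in the elastases and in prss59.1 and ctrl. For ela2 the dye terms were 0.52 and -0.23, for ela3l -0.15 and 0.30, for prss59.1 -0.14 and 0.30, and for ctrl 0.11 and -0.23. The 3 probes of ela2l had dye terms of 0.05, -0.18 and -0.15. In AgNO3, 17 of 17 probes had fitted means above 0, from 0.02 to 0.43, so the probes of each gene had means of 1 sign. None was called (lowest adjusted p = 0.620, limma), against 0.00262% of all probes. In AgNPs 8 were above 0 and 9 below, again with none called, against 0.0209% of all probes. There, too, probes of a gene mostly had means of 1 sign: 2 of the 7 genes with several probes had both signs. The difference AgNO3 minus AgNPs was positive for 15 of 17 probes. The shares of all probes or genes with such signs were not computed. Probes of a gene were read on the same arrays, so their signs are not independent. Each group held 3 arrays of each orientation, so the fitted means of the genes were identical without the dye term. That identity comes from the design, whatever the signs of the arrays. The means read as exposed over control only if the swapped arrays had been turned before deposit. With the signs of these arrays turned, the median of the 8 genes was 0.12 in AgNO3 and -0.02 in AgNPs.

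**Figure D3:**
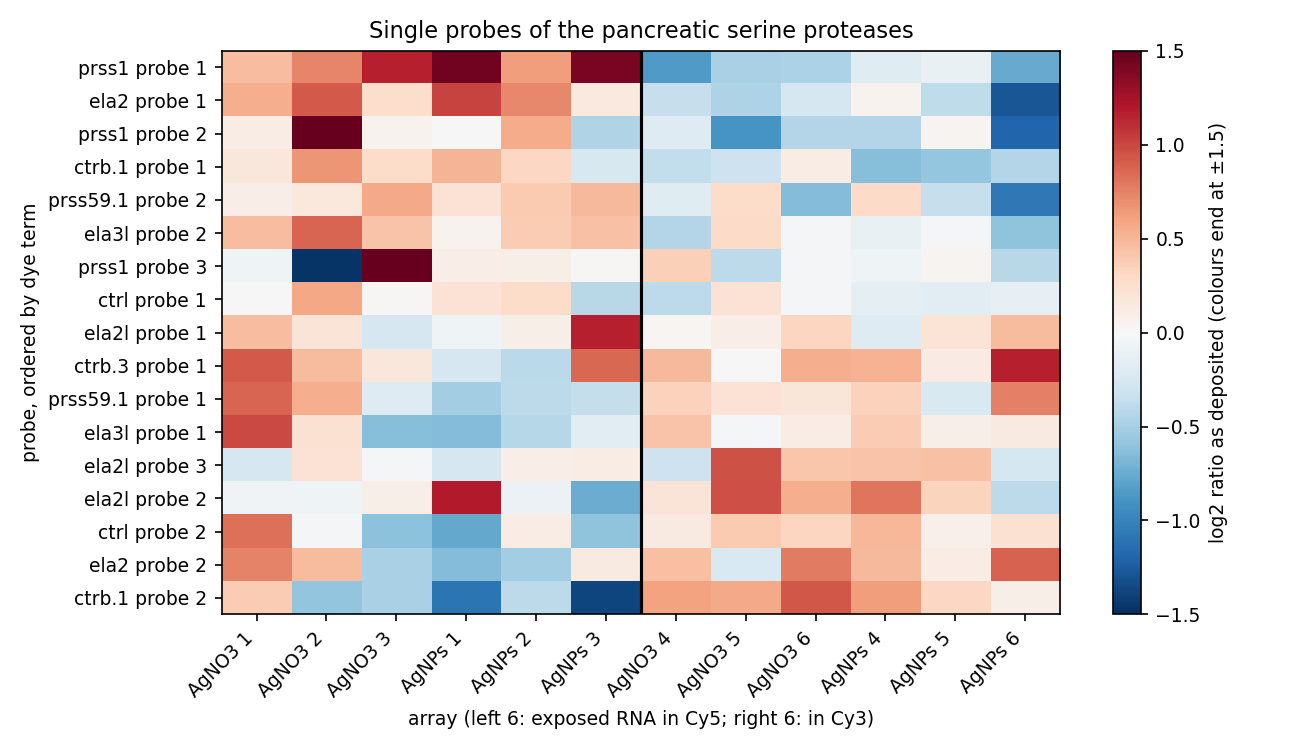
Log2 ratio as deposited of each of the 17 probes (rows, ordered by dye term from positive at the top to negative at the bottom) on each of the 12 arrays (columns; left of the black line exposed RNA in Cy5, right of it in Cy3). Red is above 0 and blue below, and colours end at a log2 ratio of 1.5 in either direction. The top rows turn from red to blue at the line and the bottom rows mostly from blue to red, and probes of ctrb.1 and ela2 stand at both ends.

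Probes of the same gene often moved in opposite directions over the 12 arrays. Over 11 pairs of probes within a gene, Pearson's r had a median of -0.12 and 7 pairs were below 0. Over all 11085 such pairs on the array, the median was 0.08 and 41.5% were below 0. The lowest values among the proteases were -0.68 for a pair of ela2l probes, -0.49 for ctrb.1, -0.47 for ela2 and -0.46 for prss59.1. With the means of group and dye orientation removed, the median of the 11 pairs was -0.01. These correlations describe 12 arrays that share control samples and 2 dye orientations.

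Gene means moved together weakly. Over the 28 pairs of the 8 genes, r across the 12 arrays had a median of 0.20, a range of -0.45 to 0.75, and 20 pairs above 0. With group and dye means removed the median was 0.10. The arrays share control samples, and the same measure over pairs of other genes was not computed. The highest pairs were ctrb.1 with ctrl at 0.75, prss59.1 with ela3l at 0.74 and ela2 with ela3l at 0.72. After that removal these pairs, picked for their high r, stood at 0.73, 0.62 and 0.68. The lowest were prss1 with ctrl at -0.45 and prss1 with ctrb.3 at -0.41. The 3 highest pairs were thus a pair of chymotrypsins, a pair of elastases and a trypsin with an elastase.

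Several of these genes lie next to each other in the RefSeq annotation of GRCz12tu, which was used only for names and order. The genes ctrb.3, ctrb.2 and ctrb.1 follow each other, ela2l precedes ela2, and prss59.1 precedes prss59.2. Close copies can share probe sequence, and cross-hybridization between them was not tested. The neighbours ela2l and ela2 had AgNO3 means of 0.20 each. In AgNPs ctrb.1 stood at -0.24 and ctrb.3 at 0.34. The gene between them, ctrb.2, which is not in the list and was looked up after the values of its neighbours were seen, stood at 0.24 in AgNPs and 0.08 in AgNO3 (adjusted p = 1.00 and 0.933, limma). Its AgNPs values were -0.71 on replicate 2, 0.79 on replicate 3 and 1.11 on replicate 6, near those of ctrb.3 at -0.41, 0.86 and 1.16. On other arrays ctrb.2 and ctrb.3 lay further apart, at -0.03 and 0.92 on AgNO3 replicate 1 and at 0.04 and 0.52 on AgNPs replicate 4. Their correlation over the arrays was not computed. Differences between neighbours were not tested.

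Other digestive enzymes of the acinar cell (amylases, carboxypeptidases, carboxyl ester lipases, further elastases and astacin proteases) were listed beside the family, together with the ribonuclease-like gene rnasel3 and the protein disulfide isomerase gene pdia2. Of 18 tested, 13 were above 0 and 5 below in AgNO3, with a median of 0.10, and 8 were above and 10 below in AgNPs, with a median of -0.04. None was called in either comparison, and 4 of 18 had an unadjusted p below 0.05 in each, against 8.25% of all features in AgNO3 and 4.24% in AgNPs. The carboxypeptidase A gene cpa1 stood at 0.27 in AgNO3 (SE 0.11, adjusted p = 0.583, limma) and at -0.39 in AgNPs (SE 0.11, unadjusted p = 0.00615, adjusted p = 0.810), where 0 of 6 arrays were above 0. Its difference AgNO3 minus AgNPs was 0.66 (SE 0.16, adjusted p = 0.858). Like ctrb.1, ctrl, prss59.1 and ela3l of the family, cpa1 stood above 0 in AgNO3 and below 0 in AgNPs. The carboxypeptidase B gene cpb1 stood at 0.25 and -0.13, and the astacin protease gene c6ast3 at 0.29 and 0.07, in AgNO3 and AgNPs respectively.

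Genes that activate or inhibit trypsin and related proteases were listed with the complement protease gene cfd and the inter-alpha-trypsin inhibitor heavy chain genes itih2 and itih3a.1. The genes of this list stood mostly on the other side of 0 in AgNO3. Of 9 tested, 2 were above and 7 below in AgNO3 (median -0.12), and 8 were above and 1 below in AgNPs (median 0.07). None was called, and 1 and 0 had an unadjusted p below 0.05 (limma), against 8.25% and 4.24% of all features. The membrane-bound Kunitz inhibitor genes spint1b and spint1a stood at -0.22 (unadjusted p = 0.0111, adjusted p = 0.493) and -0.25 in AgNO3, and at 0.01 and -0.29 in AgNPs. The antiprotease gene serpina1, made in the liver and so also in the hepatocyte list, stood at -0.27 in AgNO3 and 0.18 in AgNPs. The enteropeptidase gene tmprss15, named for its role and not by the rule, stood at -0.39 in AgNO3 (SE 0.29, adjusted p = 0.701) and 0.07 in AgNPs.

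Acinar transcription factors were evenly split. Of 8 tested, 4 were above and 4 below 0 in AgNO3 (median 0.04) and 5 and 3 in AgNPs (median 0.00). None was called, and 1 and 0 had an unadjusted p below 0.05 (limma), against 8.25% and 4.24% of all features. In AgNO3 nr5a2, a nuclear receptor that drives acinar genes in the mouse, stood at 0.18 (unadjusted p = 0.0334, adjusted p = 0.571), and in AgNPs at 0.0007. The gene of the acinar maturation factor bhlha15 (Mist1 in the mouse) stood at 0.34 (SE 0.21) and 0.0013, and onecut1 at 0.10 and 0.16.

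The secretory machinery, which translocates and folds zymogens and moves their granules in many secretory cells, was lower more often than higher in AgNO3. Of 18 genes tested, 5 were above and 13 below (median -0.08), and in AgNPs 7 were above and 11 below (median -0.01). None was called, and 2 and 0 had an unadjusted p below 0.05 (limma), against 8.25% and 4.24% of all features. The chaperone gene hspa5 (BiP) stood at -0.40 in AgNO3 (SE 0.06, unadjusted p = 3.17e-05, adjusted p = 0.100), with 0 of 6 arrays above 0, and at 0.09 in AgNPs. Its cochaperone gene dnajb11 stood at -0.19 and 0.02, and calr3b at -0.18 and 0.10. None of these genes is specific to the pancreas.

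Marker lists of other cell types were set beside the family, as whole larvae hold them all. Islet markers stood on the side of the proteases in AgNO3, with 9 of 11 above 0 (median 0.14, array means -0.04 to 0.22), and with 6 of 11 above 0 in AgNPs (median 0.05, array means -0.08 to 0.41). In each comparison 2 of the 11 had an unadjusted p below 0.05 (limma), against 8.25% of all features in AgNO3 and 4.24% in AgNPs. Enterocyte markers had 7 of 11 above 0 in AgNO3 (median 0.07, array means -0.16 to 0.23) and 5 of 11 in AgNPs (median -0.06, array means -0.35 to 0.05). Their differences AgNO3 minus AgNPs were positive for 11 of 11, against 48.2% of all features. An unadjusted p below 0.05 was found for 6 of the 11 in AgNO3 and 3 in AgNPs (limma), against 8.25% and 4.24% of all features. Picked after their values were seen, the brush border genes slc15a1b, a peptide transporter, and anpepb.1, an aminopeptidase, stood at -0.50 and -0.41 in AgNO3 (adjusted p = 0.280 and 0.367). In AgNPs they stood at -0.69 and -0.58 (adjusted p = 0.108 and 0.295), and the sugar transporter gene slc5a1 at -0.28 in AgNO3 and -0.40 in AgNPs. Other enterocyte markers went the other way in AgNO3, also at an unadjusted p below 0.05 (limma): cdx1b at 0.35, fabp6 at 0.25 and fabp1b.1 at 0.21. In AgNPs these stood at 0.04, 0.10 and 0.02. Hepatocyte markers had 6 of 12 above 0 in AgNO3 (array means -0.32 to 0.43) and 8 of 12 in AgNPs (array means -0.43 to 0.45). Of these, 3 and 1 had an unadjusted p below 0.05 (limma), against 8.25% and 4.24% of all features. Duct markers had 1 of 5 above 0 in AgNO3 and 3 of 5 in AgNPs, and markers of secretory gut cells 0 of 3 and 1 of 3. In each, 0 or 1 had an unadjusted p below 0.05 (limma), against the same shares of all features. No gene of these lists was called, and their part in the protease values was not tested.

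**Figure D4:**
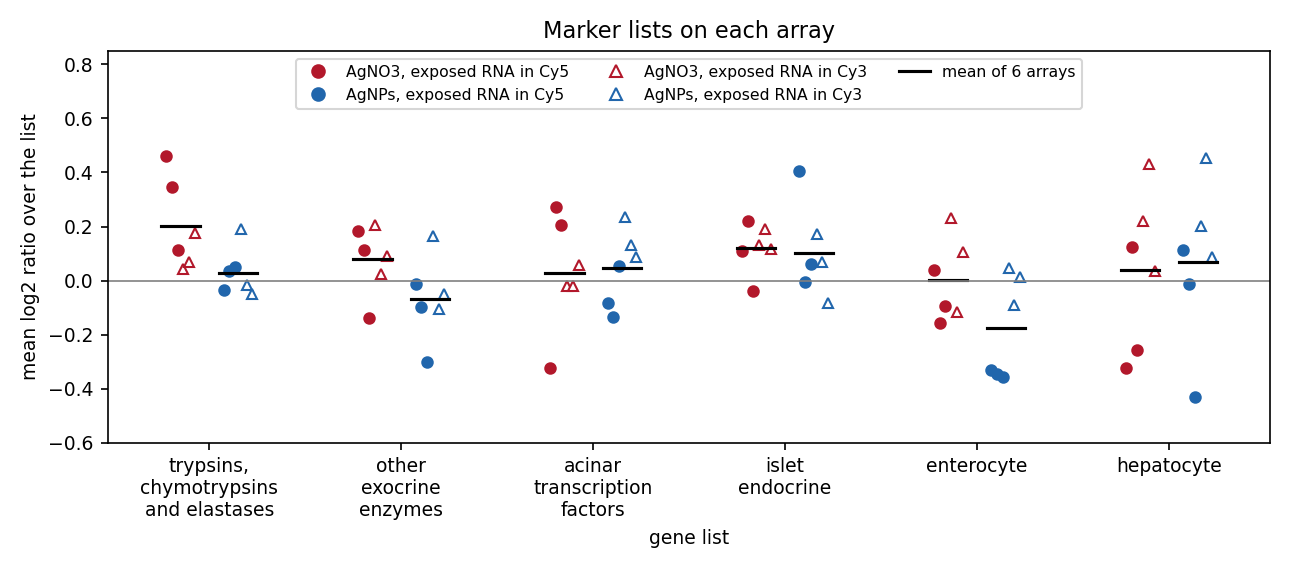
Mean log2 ratio over the tested genes of each list (vertical axis) on each array, for 6 gene lists (horizontal axis), with AgNO3 in red, AgNPs in blue, filled circles for exposed RNA in Cy5, open triangles for Cy3, and a bar at the mean of 6 arrays. The list means of the trypsins, chymotrypsins and elastases lie between 0.04 and 0.46 in AgNO3 and between -0.05 and 0.19 in AgNPs. On AgNO3 replicate 3, however, 5 of the 8 genes were below 0. Enterocyte markers lie near -0.35 on the 3 AgNPs arrays with exposed RNA in Cy5.

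Among 17576 features measured on all 12 arrays, those most like the mean of the 8 genes by Pearson's r were 2 unnamed probes (0.87 and 0.85), neurl1aa (0.87), LOC100149190 (0.86), serp2 (0.85), ponzr3 (0.85), fbxo21 (0.85) and bcas2 (0.84). The most unlike were ckap2l (-0.91), maneal (-0.87) and cks1b (-0.87). No gene of the list of other exocrine enzymes was among them. The list of other exocrine enzymes, averaged, had an r of 0.54 with the mean of the 8 genes over the 12 arrays. After a split by the sign of the dye term, chosen once the probe values had been seen, the 8 negative probes had an r of 0.73 with the other exocrine enzymes and 0.80 with enterocyte markers, and the 9 positive probes -0.28 and -0.62. The 8 features most like the mean of the negative probes were led by rgs8 (0.92). Of the exocrine list they held cpb1 (0.89) and cel.1 (0.86). The others were an unnamed probe (0.88), khdrbs1b (0.88), med15 (0.87), ugt1a7 (0.87) and the hepatocyte marker apoa1a (0.86). The 8 features most like the mean of the positive probes were led by rps14 (0.93) and the lens crystallin gene crygm2d2 (0.93). They also held the lens crystallin genes crygm2d12 (0.91), crygm2d10 (0.91) and crygm2d17 (0.89), and the others were unnamed probes (0.90 to 0.93). These are descriptions of 12 arrays, and the split itself used the orientation of the arrays.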

How the data were processed

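The authors deposited 1 log ratio of the channels per probe and array, taken here as log2, for 43603 probes on 12 arrays. The base is an assumption, since a range of -8.02 to 7.67 would be implausibly wide as log10. Total RNA came from a Trizol extraction and carried Cy3 or Cy5, per the labels' protocols, which name no background correction, normalization or spot filter. Array medians lay between -0.0093 and 0.015, and 6.97% to 10.9% of an array had no value. The values were used as deposited, as if dye-swapped arrays had been turned by the authors.

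Gene names came from the annotation of the platform, brought up to date with RefSeq accessions and synonyms: 30186 probes had 1 symbol and 13417 had none. Probes of a gene were averaged per array, which gave 28497 features. A feature was tested with at least 2 of 3 values per group and orientation. Groups came from the sample labels. All 12 arrays were fitted in limma 3.58.1 (R 4.3.3) with group means and a dye term (lmFit, eBayes, 2-sided), with Benjamini-Hochberg adjustment over 25264 features and a threshold of 0.05. The fit was tested on simulated data. The alternatives were blocks, the sign of swapped arrays, the dye term, array scaling and weights, subsets of arrays, filters and the probe summary.

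Every listed protease with a probe is named. Of each acinar list, the 3 genes of lowest unadjusted p were named, with the 8 most and 3 least similar features. The proteases and lists were chosen with earlier results of these data known. Replicate numbers were not taken as pairs in the main fit. The 6 same-numbered pairs of arrays had correlations of deviations from -0.147 to 0.0127. Pairs that share a control sample by their codes had -0.0172 to 0.0694. As the measure stayed near 0 even there, it cannot decide whether same-numbered samples were paired. Figures were drawn with matplotlib 3.10.9.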

Additional observations from a re-analysis of the deposited data

Results flagged for a closer look

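In 48 groups of 6 arrays (8 genes and 16 further probes in 2 groups), 2 samples stood far from the other 5. Chance flags about 1 group in 20. For ctrb.1 in AgNPs, replicate 3 stood at a log2 ratio of -0.81, and the other 5 arrays lay between -0.29 and -0.01. For probe 3 of prss1 in AgNPs, replicate 6 stood at -0.42, and the other 5 lay between -0.06 and 0.11.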

How the results depend on the processing

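In 26 other settings, 12 of which left out 1 array each, none of the 8 genes was called against control or between exposures. Nor was any of their probes in these comparisons in the fits of single probes, which were chosen after seeing the data. The lowest adjusted p was 0.115 (limma), for prss1 probe 1 in AgNO3 with swapped arrays turned. The dye term of that probe did pass the threshold (adjusted p = 0.00949, limma). If the Cy3 arrays had not been turned before deposit, that term would read as exposed over control over both groups. Of 592 gene values under the alternatives, 553 kept their direction and 39 turned, and the causes were not tested. Many of the 592 could not turn. The blocks, the fit without the dye term, the fits of a single group and the other filters on missing values gave the main values again. So did leaving out arrays of the other group, for the comparisons against control. With the replicate block the medians over the genes, 0.19 in AgNO3, 0.00 in AgNPs and 0.16 in the difference, are fixed by the balance of the arrays, and the lowest adjusted p was 0.591, 1.00 and 0.884. Leaving out 1 array each gave medians from 0.14 to 0.22, from -0.06 to 0.05 and from 0.11 to 0.24. The median difference was 0.35 with the Cy5 arrays only and 0.059 with the Cy3 arrays only. The AgNO3 median was 0.37 with Cy5 arrays, 0.081 with Cy3 arrays and 0.12 with swapped arrays turned.

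With swapped arrays turned, prss1 moved from 0.086 to 0.46 in AgNO3 (adjusted p = 0.293, limma) and from 0.041 to 0.38 in AgNPs. Other AgNO3 values became -0.093 for ctrb.1 and -0.16 for ela2l, AgNPs values 0.0067 for prss59.1, -0.27 for ctrb.3 and -0.019 for ela2l, and the difference of ela2l -0.14. With Cy3 arrays only, AgNO3 gave -0.38 for prss1 and -0.0095 for ela2, AgNPs gave -0.34 for prss1, 0.065 for ctrl and -0.022 for ela2, and the difference -0.034 for prss1 and -0.26 for ctrb.3. With Cy5 arrays only, the difference of ela2l was -0.13. Arrays scaled to a common spread gave -0.11 for prss1 in AgNPs and differences of -0.49 for ctrb.3 and -0.14 for ela2l. Array weights gave 0.018 for prss59.1 and 0.043 for ela3l in AgNPs and a difference of -0.030 for prss1. Without AgNPs replicates 3 to 6, AgNPs gave -0.42 for ctrb.3 and -0.072 for ela2, and the difference of ela2l was -0.13. The median over probes gave -0.035 for prss1 in AgNPs.

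Leaving out 1 array each, prss1 ran from -0.073 to 0.16 in AgNO3, from -0.041 to 0.13 in AgNPs and from -0.11 to 0.13 in the difference. In AgNPs prss59.1 ran from -0.13 to 0.0060, ctrl from -0.14 to 0.020, ela2 from -0.020 to 0.084 and ela3l from -0.097 to 0.033. In the difference ctrb.3 ran from -0.046 to 0.26 and ela2l from -0.074 to 0.081. Signal over background is unknown, so dim probes could not be set apart.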
